A study of Mus musculus with 2 samples.

Results

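Cytotoxic lymphocytes kill through genes of a few kinds, and 10 of them were followed here in CD4+ T cells from mouse spleen. They were the granule proteases Gzma, Gzmb and Gzmk, the pore-forming protein Prf1, the granule membrane protein Nkg7, the killer lectin-like receptors Klrd1, Klrk1 and Klrg1, the death ligand Fasl and the transcription factor Eomes. Genes were matched by symbol, and all 10 were found among the 24346 symbols of both libraries. They were selected on their FPKM and ratios in these same 2 libraries, so the ratios describe the libraries and test nothing. The series concerns T helper cells after myocardial infarction in animals labelled HFD-MI. CD4+ T cells were sorted from spleen at day 14, and 1 library came from animals treated with probucol, a drug that lowers cholesterol and acts as an antioxidant, and 1 from untreated animals. Both groups carry the HFD-MI label, and both file headers the word HypoE, which the labels leave unexplained. Genotype, age, sex, the dose of probucol and the number of animals pooled in a library are not stated in the labels.

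In textbook terms, a killer lymphocyte stores perforin and granzymes in secretory granules and releases them towards a bound target. Perforin opens the target's membrane, and granzymes enter through it and cleave proteins that set off cell death. Fas ligand, the product of Fasl, kills by a separate route, through the receptor Fas and caspases. Killer lectin-like receptors read ligands on the target and activate or restrain the lymphocyte. Most CD4+ T cells are helpers, but a minority of antigen-experienced CD4+ cells carry granzymes and perforin, and some effector regulatory T cells carry Klrg1 and Gzmb.

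Levels are given as FPKM, fragments corrected for transcript length and for library size. Length is divided out, but other differences between genes in capture and amplification were not examined, so levels compare only roughly between genes. Each group is a single library, so no spread between replicates and no p-value can be given. Intervals are exact 95% intervals of fragment counting and leave out differences between animals, sorts and library preparations. The fragment numbers behind them were estimated from the values, PCR copies included. A 1 kb transcript had about 7.86 fragments per FPKM with probucol and 7.90 untreated. Where fragments are copies of the same molecule, the intervals are too narrow. Ratios are log2((probucol + 1)/(untreated + 1)) where called log2 ratios, and quotients of FPKM where called folds. The added 1 shrinks the ratio of low genes. The sum of the 13 CD4 T cell identity genes was 5390 FPKM with probucol and 5552 untreated, with Cd4 at 334 and 284 FPKM. Marker sums of some other cells were unequal: 12 B cell genes summed to 66.3 and 25.4 FPKM, 10 erythroid genes to 304 and 986 FPKM, and 10 neutrophil genes to 1084 and 964 FPKM. With probucol 14289 symbols were above 0, against 16876 untreated. The part of these differences in the ratios below was not tested, and in such bulk libraries fewer cells carrying a gene and less RNA per cell cannot be told apart.

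Most of the 10 genes were lower in the probucol library, but they did not move as a block. The log2 ratio was below 0 for 8 genes and above 0 for 2, against 47.3% of 10663 genes with a mean FPKM of 1 or more below 0 and 52.7% above. Gzma, Klrd1, Gzmb and Nkg7 were at least 2-fold lower on that scale, and no member was at least 2-fold higher. Over all genes tested 1.98% were that much lower and 1.62% that much higher. Prf1 was higher with probucol and Fasl was level. All 10 genes passed the filter of a mean FPKM of 1, the lowest being Klrk1 with a mean of 1.58 FPKM and Gzma with 1.71 FPKM. These 2 genes were under 1 FPKM with probucol and passed through the untreated library alone, so they had to be lower there. The members' median log2 ratio was -0.81, beside 0.02 over all genes tested. Nearest to the 2-fold line were Nkg7 at -1.07 inside it and Klrk1 at -0.92 outside.

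**Figure D1:**
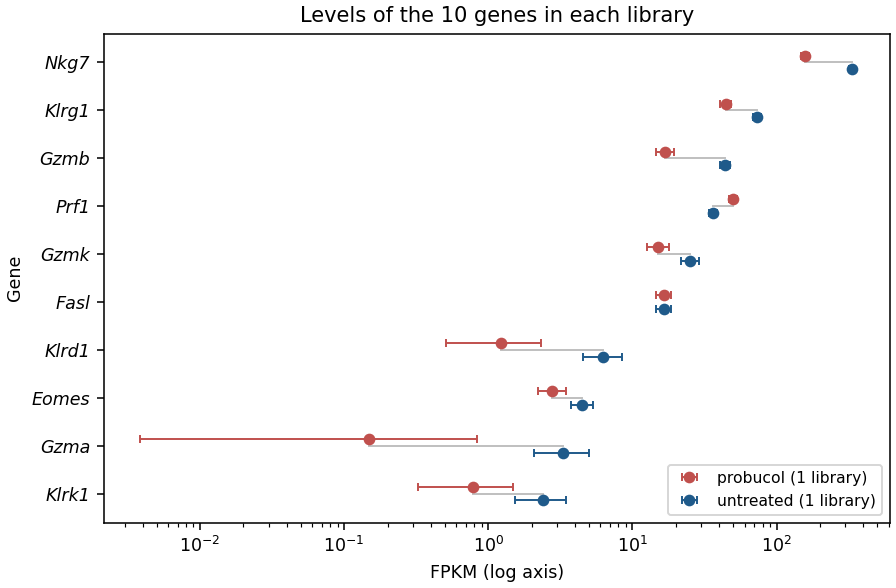
FPKM of each gene (log axis) with probucol (red) and untreated (blue), 1 library each; bars are exact 95% Poisson intervals of counting. Untreated points lie to the right for 8 genes, Fasl points coincide at 16.5 FPKM, and Prf1 is to the right with probucol, at 49.9 against 36.3 FPKM.

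The 3 granzymes differed in how far apart the libraries stood. Gzmb, a protease that cuts after aspartate and activates caspases, measured 16.8 FPKM with probucol, against 43.8 FPKM untreated. This was 2.60-fold lower (2.21 to 3.07), on an estimated 206 and 537 fragments. Gzmk, a trypsin-like granzyme typical of memory-like cytotoxic cells, was at 15.1 and 25.1 FPKM, 1.66-fold lower (1.32 to 2.1). Gzma, the other trypsin-like granzyme, was at 0.150 and 3.28 FPKM. It rests on about 1 and 22 fragments, and its fold of 21.9 lower has an interval from 3.54 to 904. Fewer of all symbols were above 0 with probucol, 14289 against 16876 untreated. The part of this in the folds of low genes such as Gzma, Klrd1 and Klrk1 was not tested. Gzmb and Gzmk were thus the 2 granzymes of any abundance, and Gzma was close to the level of single fragments with probucol. Together the 3 genes summed to 32.1 FPKM with probucol and 72.2 FPKM untreated. Gzmb made up 52.5% of that sum with probucol and 60.7% untreated, and Gzmk 47.1% and 34.8%. The Gzmb to Gzmk quotient was 1.12 with probucol and 1.74 untreated, so that Gzmb was 1.56-fold (1.17 to 2.07) further down than Gzmk. Against Gzmk, its neighbour on the chromosome, Gzma was 13.2-fold further down, with an interval from 2.06 to 546.

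Gzma (chromosome 13, 113093825 to 113100981, minus strand, mm10) and Gzmk (113171608 to 113225908, minus strand) lie 70627 bases apart. The annotated span of Gzmk overlaps 8440 bases of Esm1, on the opposite strand, which was at 0.952 and 0.738 FPKM. Neighbouring genes such as this one were named after their values were seen. The RefSeq start of Gzmk, at 113180965, lies short of Esm1 (113209659 to 113218098), so only the longer GENCODE span overlaps it. Neither annotation nor stranded counting is stated for the deposited values, but Esm1 was far below Gzmk. Gzmb (chromosome 14, 56258838 to 56262260, minus strand) belongs to a granzyme cluster. The nearest cluster gene, Gzmc, at a gap of 24182 bases, was at 2.21 and 0.963 FPKM, on 15 and 7 fragments, which is a fold of 2.30 with an interval from 0.881 to 6.65. Further members were at or near 0: Gzmf was listed at 0 with probucol and at 0.142 FPKM untreated, and Gzmg and Gzmn were listed at 0 in both libraries. In annotated transcripts, none of the 50-base stretches of Gzma, Gzmb or Gzmk occurred in another gene, so an exact match of that length would not move reads between them. The same held for the other members except Eomes, which shared 0.386% of its stretches.

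Perforin went the other way from the granzymes. Prf1 (chromosome 10, 61297833 to 61304680, plus strand) measured 49.9 FPKM with probucol, against 36.3 FPKM untreated, 1.37-fold higher (1.25 to 1.51), on 1123 and 822 fragments. Of the 10663 genes tested, 1133 had a higher log2 ratio than its 0.45. Untreated, Prf1 was at 0.828 of the level of Gzmb, and with probucol at 2.96 times that level. The Prf1 to Gzmb quotient therefore differed 3.57-fold between the libraries (2.95 to 4.30). Nkg7, whose product sits in the granule membrane and is needed for efficient granule release, was the most abundant of the 10 genes. It measured 158 FPKM with probucol, against 333 FPKM untreated, 2.11-fold lower (1.96 to 2.27). The gene is on chromosome 7 (43437073 to 43438249, plus strand). Its neighbour Etfb, an electron transfer flavoprotein gene 5834 bases away, was at 107 and 115 FPKM. The summed FPKM of the 10 genes was 305 with probucol and 543 untreated, and Nkg7 supplied 73.4% of that difference. Without Nkg7, the other 9 genes summed to 147 and 211 FPKM. The Prf1 to Nkg7 quotient was 2.90-fold higher with probucol (2.57 to 3.26). Gzmb was 1.23-fold (1.03 to 1.48) further down than Nkg7.

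**Figure D2:**
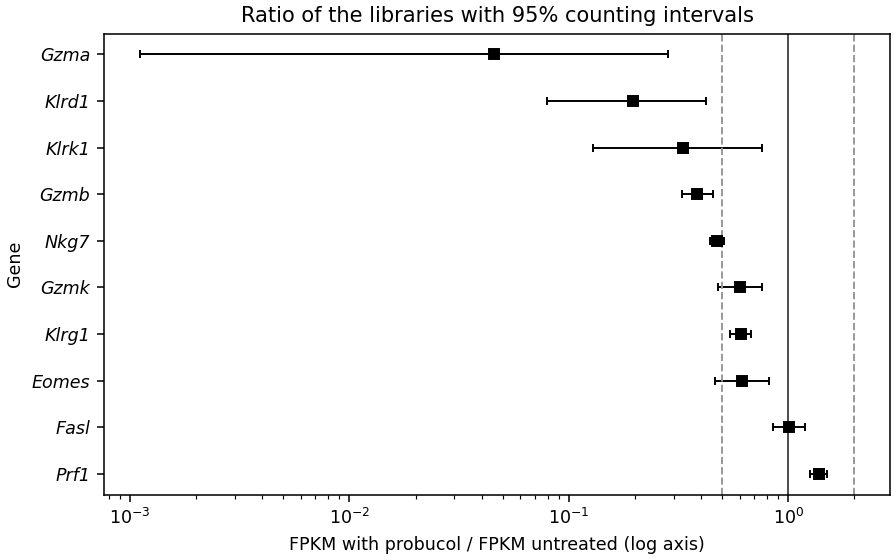
FPKM with probucol divided by FPKM untreated (log axis) for each gene; bars are exact 95% binomial intervals of counting, the solid line marks equal levels and the dashed lines 2-fold either way. Gzma, Klrd1, Gzmb and Nkg7 have folds below the lower dashed line, as does Klrk1, whose log2 ratio with 1 added is -0.92; the bars of Prf1 lie above 1 and those of Fasl across it.

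Fasl (chromosome 1, 161780689 to 161788495, minus strand), the ligand of the second killing route, was at 16.5 FPKM in both libraries, a fold of 1.0 (0.847 to 1.19) on 283 and 284 fragments. Its log2 ratio of 0.004 became -0.01 after centring on the median gene, so it has no direction. Set against Gzmb, the Fasl level was 2.61-fold higher with probucol (2.05 to 3.29), and against Nkg7 it was 2.11-fold higher (1.76 to 2.54). The pathway downstream of Fasl was close between the libraries. Of 16 death receptor genes tested, 7 were lower, 9 higher and 0 past 2-fold, with a median log2 ratio of 0.02, beside 0.02 over all genes. Fas, the receptor itself, had 63.3 and 56.3 FPKM and was 1.12-fold higher (0.987 to 1.28). Its adaptor Fadd was at 3.80 and 5.06 FPKM, and the initiator caspase Casp8 was at 134 and 104 FPKM, 1.28-fold higher (1.20 to 1.36). Tnfsf10, which encodes the related death ligand TRAIL, was at 4.68 and 4.66 FPKM, and one of its receptors, Tnfrsf10b, was at 3.07 and 4.87 FPKM.

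The 3 killer receptors covered a wide range of levels. Klrg1, an inhibitory receptor of terminally differentiated effector cells and of some regulatory T cells, measured 44.2 FPKM with probucol, against 72.9 FPKM untreated. It was 1.65-fold lower (1.48 to 1.84), on 530 and 878 fragments. Klrd1, which encodes CD94, the common partner of the NKG2 receptors, was at 1.22 and 6.22 FPKM. On about 8 and 43 fragments it was 5.10-fold lower (2.37 to 12.6). Klrk1, which encodes the activating receptor NKG2D, was at 0.785 and 2.38 FPKM, 3.03-fold lower (1.32 to 7.77), on about 8 and 25 fragments. Its 3 RefSeq-matched transcripts run from 1019 to 3197 bases. Its fragments would be 6 and 19 with the shortest length, and 23 and 71 with the longest. Klrd1 was 3.10-fold (1.49 to 8.05) further down than Klrg1, while Klrd1 and Klrk1 had overlapping intervals, with a quotient of folds of 1.68 from 0.491 to 5.96. Both are low genes, and low genes spread more: at least 2-fold lower were 4.39% of genes with a mean FPKM from 1 to under 5, 1.55% from 5 to under 20, and 0.923% at 20 or more. Gzma also lies in the lowest of these bands, and Gzmb and Nkg7 in the highest.

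Klrg1 lies on chromosome 6 (122270596 to 122282882, minus strand), apart from Klrd1 (129591782 to 129598775, plus strand) and Klrk1 (129610323 to 129623864, minus strand), which are neighbours 11548 bases apart in the natural killer gene complex. Other genes of that complex were low and mixed. Klre1, 5955 bases from Klrd1, was at 0.996 and 0.708 FPKM, the NKG2A gene Klrc1 at 1.36 and 1.41 FPKM, and Klrc2 at 0.201 and 0.40 FPKM. Of the 23 other killer lectin-like receptor genes found, 4 passed the filter, 3 of them lower and 1 higher, with 0 past 2-fold and a median log2 ratio of -0.38. Of these 4, Klrb1a and Klrb1f, at 0.658 and 0.869 FPKM with probucol and 2.11 FPKM each untreated, passed through the untreated library alone. The median was -0.62 with pseudocount 0.1 and -0.14 with pseudocount 5, and over the 18 genes above 0 in either library, 11 lower and 7 higher, it was -0.10. Klrb1c, which encodes the NK1.1 antigen in some strains, was at 1.82 and 1.57 FPKM. The 23 genes summed to 7.92 and 11.6 FPKM, and 11 were listed at 0 with probucol against 8 untreated. Zeros were more frequent with probucol in general: of all 24346 symbols, 14289 were above 0 with probucol and 16876 untreated. Many of the 23 genes are close paralogs, and their reads could have been split between copies.

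Partners of the receptors were mostly within 2-fold between the libraries, and most of their ligand genes were too low to be tested. Of 18 adaptor and proximal signalling genes tested, 5 were lower and 13 higher, 1 of them past 2-fold, with a median log2 ratio of 0.19. Hcst, which encodes DAP10, the signalling partner of NKG2D, was at 676 and 806 FPKM, 1.19-fold lower (1.11 to 1.28). Tyrobp, which encodes DAP12, was at 36.4 and 42.1 FPKM. Ptpn6, which encodes the phosphatase SHP-1 recruited by inhibitory receptors, had 441 and 269 FPKM and was 1.64-fold higher (1.59 to 1.70). Lat2 and Syk, an adaptor and a kinase prominent in B cells, had 4.0 and 2.81 FPKM in the probucol library against 1.26 and 0.958 FPKM untreated, beside B cell markers that summed to 66.3 and 25.4 FPKM. Of 12 ligand genes found, 2 passed the filter, 1 lower and 1 higher, and 5 were listed at 0 in both libraries. H2-T23, which encodes Qa-1, the ligand of CD94 with NKG2A, was at 350 and 424 FPKM. The E-cadherin gene Cdh1, a ligand of KLRG1, was at 0.0715 and 0.261 FPKM. NKG2D ligand genes were at 1.49 FPKM or less in both libraries.

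**Figure D3:**
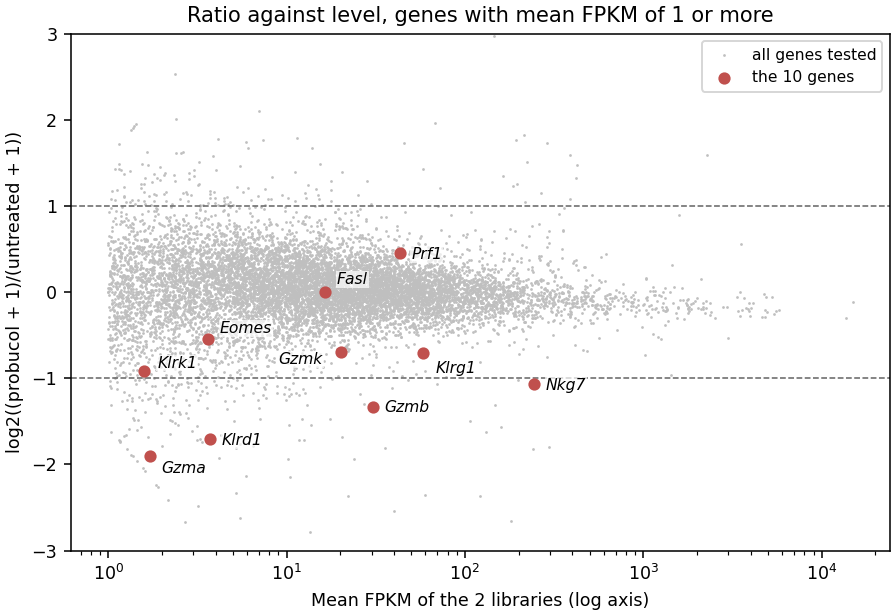
log2 ratio of each gene against its mean FPKM (log axis) for the genes tested in grey and the 10 genes in red; dashed lines mark 2-fold, and 52 of 10663 grey genes lie beyond the axis. Gzmb and Nkg7 lie below the lower line at levels where 0.923% of genes do, and Gzma and Klrd1 where 4.39% do.

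Eomes (chromosome 9, 118478212 to 118486132, plus strand), a T-box transcription factor of cytotoxic lymphocytes, measured 2.77 FPKM with probucol, against 4.50 FPKM untreated. It was 1.62-fold lower (1.23 to 2.16), on about 83 and 135 fragments. The gene overlaps 574 bases of the antisense gene Gm33460, whose reads cannot be told apart from its own without strand. The T-bet gene Tbx21, its close relative, had 16.2 and 15.9 FPKM, and Eomes was 1.65-fold (1.19 to 2.27) further down than Tbx21. Of 14 other transcription factors listed for the cytotoxic programme and tested, 9 were lower and 5 higher, with 0 past 2-fold and a median log2 ratio of -0.19. The list is broad: the 9 lower genes include Klf2, 1.27-fold lower (1.21 to 1.33), and Tox, 1.13-fold lower (1.06 to 1.21). Zbtb32 was at 11.4 and 19.3 FPKM, 1.70-fold lower (1.40 to 2.05), Bhlhe40 1.57-fold lower (1.38 to 1.78), and Rora 1.5-fold lower (1.28 to 1.75). Runx3, which drives the cytotoxic lineage and binds the promoters of cytotoxic genes, was at 30.4 and 21.0 FPKM, 1.45-fold higher (1.32 to 1.59). Of 10 factors that oppose the programme or hold cells in a naive or helper state, 5 were lower and 5 higher. None was past 2-fold, and the median log2 ratio was 0.03. The larger ratios were those of higher genes. Bcl6 was 1.48-fold higher (1.25 to 1.75), Id3 1.41-fold (1.29 to 1.53) and Bach2 1.37-fold (1.19 to 1.56). Of the 5 lower genes, Gata3 was furthest down, 1.19-fold (1.12 to 1.28). Zbtb7b, which encodes ThPOK, the factor that commits thymocytes to the CD4 lineage and represses cytotoxic genes, was at 12.6 and 8.11 FPKM, 1.55-fold higher (1.33 to 1.80). Tcf7, the TCF-1 gene of naive and memory cells, was at 575 and 636 FPKM.

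The order of the members' levels was compared by the quotient of FPKM of each of the 45 pairs, with its counting interval and no adjustment over the pairs. The intervals leave out differences between genes in capture and amplification, so a quotient compares 2 levels only roughly. The order was reversed between the libraries for 5 pairs, and for 2 of these, Gzmb with Prf1 and Klrg1 with Prf1, the interval lay off 1 in both libraries. Nkg7 was highest in both. Untreated, Klrg1 at 72.9, Gzmb at 43.8 and Prf1 at 36.3 FPKM followed. Gzmb was then 1.21 times the level of Prf1 (1.08 to 1.35), and with probucol 0.338 of it (0.290 to 0.392). Prf1 was at 0.498 of the level of Klrg1 untreated (0.452 to 0.548), and at 49.9 against 44.2 FPKM it was 1.13 times that level with probucol (1.02 to 1.25), an interval that ends close to 1. The intervals held 1 for 5 pairs with probucol: Gzmb with Gzmk, Gzmb with Fasl, Gzmk with Fasl, Klrd1 with Klrk1, and Gzma with Klrk1. Untreated they held 1 for 3 pairs: Gzma with Klrk1, Gzma with Eomes, and Klrd1 with Eomes.

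Reference promoter sequence is shown for 5 members that differ in direction, with 250 bases before the RefSeq gene start. Gzma, Gzmb and Nkg7 were at least 2-fold lower, Fasl was level and Prf1 was higher. Windows read 5′ to 3′ on the gene's strand in GRCm38.p6, the assembly of mm10, and are at chr13:113100982-113101231 (minus), chr14:56262335-56262584 (minus), chr7:43436888-43437137 (plus), chr10:61297586-61297835 (plus) and chr1:161788496-161788745 (minus). Capitals mark exact matches, on either strand, to a T-box element (GGTGTGA), a RUNX site (TGTGGT), an AP-1 site (TGANTCA) or a STAT site (TTCNNNGAA).
Gzma: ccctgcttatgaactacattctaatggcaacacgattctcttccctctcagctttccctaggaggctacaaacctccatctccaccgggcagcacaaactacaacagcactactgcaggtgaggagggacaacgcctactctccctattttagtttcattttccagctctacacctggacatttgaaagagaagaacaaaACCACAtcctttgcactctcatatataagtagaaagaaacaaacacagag
Gzmb: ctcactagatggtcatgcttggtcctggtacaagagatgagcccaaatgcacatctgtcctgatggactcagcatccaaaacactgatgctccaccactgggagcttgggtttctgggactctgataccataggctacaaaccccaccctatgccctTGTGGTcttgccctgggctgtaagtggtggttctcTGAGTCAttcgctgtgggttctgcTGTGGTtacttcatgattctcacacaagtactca
Nkg7: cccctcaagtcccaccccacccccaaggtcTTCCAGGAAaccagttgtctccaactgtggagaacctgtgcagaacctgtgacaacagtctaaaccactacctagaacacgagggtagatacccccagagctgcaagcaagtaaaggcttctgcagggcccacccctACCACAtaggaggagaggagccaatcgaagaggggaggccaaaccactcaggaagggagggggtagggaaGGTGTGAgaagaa
Prf1: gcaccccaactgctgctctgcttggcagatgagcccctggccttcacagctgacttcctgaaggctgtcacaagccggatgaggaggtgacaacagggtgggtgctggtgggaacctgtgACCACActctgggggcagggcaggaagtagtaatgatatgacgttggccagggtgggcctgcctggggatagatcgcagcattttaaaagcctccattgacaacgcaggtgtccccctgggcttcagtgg
Fasl: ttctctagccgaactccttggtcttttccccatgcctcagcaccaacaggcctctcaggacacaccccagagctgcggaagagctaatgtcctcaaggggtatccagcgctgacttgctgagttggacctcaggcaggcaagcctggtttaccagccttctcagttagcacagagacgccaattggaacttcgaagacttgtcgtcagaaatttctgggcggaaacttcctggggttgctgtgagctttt
RefSeq promoters were found for 8 of the 10 members, all but Klrd1 and Klrg1. The RUNX letters were in 5 of the 8 windows (Gzma, Gzmb, Nkg7, Prf1 and Klrk1), beside 14% of 32851 promoters. Gzmb held them at 93 to 88 and at 34 to 29 bases before the start, with an AP-1 match between, at 58 to 52. The T-box letters were in 2 windows, Nkg7 at 13 to 7 and Gzmk at 75 to 69 bases before the RefSeq start, beside 3.33% of promoters. The RefSeq starts differ from the GENCODE gene spans printed above for some genes. That of Nkg7 lies 65 bases inside the GENCODE gene, so the last 65 bases of its window, with the T-box match, are within that gene. That of Gzmk lies 44943 bases inside, so its whole window is within the longer GENCODE gene, that of Prf1 lies 3 bases inside, and none of the other 5 windows overlaps its GENCODE gene. The RefSeq start of Gzmb, at 56262334, lies before its GENCODE start of 56262260 on the minus strand. Its matches are therefore further from the GENCODE start than the positions given. The AP-1 letters were in 1 window, beside 6.75%, and the STAT letters in 1, Nkg7, beside 7.02%. The Fasl and Eomes windows held no match. Both Gzmb, lower with probucol, and Prf1, higher, held RUNX letters, and a match is a description of sequence and not of binding.

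Most genes of the machinery around the granule were within 2-fold between the libraries. The granzymes above were selected on their ratios, so a comparison with them tests nothing. Of 14 other granule genes tested, 9 were lower and 5 higher, with 0 at least 2-fold lower, 1 at least 2-fold higher and a median log2 ratio of -0.13. Srgn, the proteoglycan that packs granzymes and perforin, was at 522 and 576 FPKM, 1.10-fold lower (1.06 to 1.14). Ctsc, the peptidase that activates granzymes, was at 73.8 and 76.8 FPKM. Cst7, an inhibitor of cathepsin C, was 1.37-fold lower (1.27 to 1.48), and Ctsw, a cathepsin of cytotoxic cells, 1.34-fold lower (1.22 to 1.47). The granzyme B inhibitor Serpinb9 was at 15.3 and 14.9 FPKM. Gzmm, another granzyme, was at 0.743 and 1.85 FPKM, on about 8 and 20 fragments. It was 2.49-fold lower (1.05 to 6.53), and its log2 ratio with 1 added was -0.71. Gzmc, at 2.21 and 0.963 FPKM, also belongs to this list. Ctsl, a lysosomal cathepsin, was at 11.4 and 4.87 FPKM, 2.35-fold higher (1.81 to 3.06), and myeloid and B cells also express it. Of 19 genes of granule transport and fusion, 13 were lower, 6 higher and 0 past 2-fold, with a median of -0.04. Rab27a, the GTPase that docks granules, was at 19.3 and 19.5 FPKM, and the priming factor Unc13d at 42.0 and 46.7 FPKM. Vamp2, 1.55-fold higher (1.38 to 1.76), and Sytl3, 1.60-fold lower (1.12 to 2.32), were furthest apart.

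**Figure D4:**
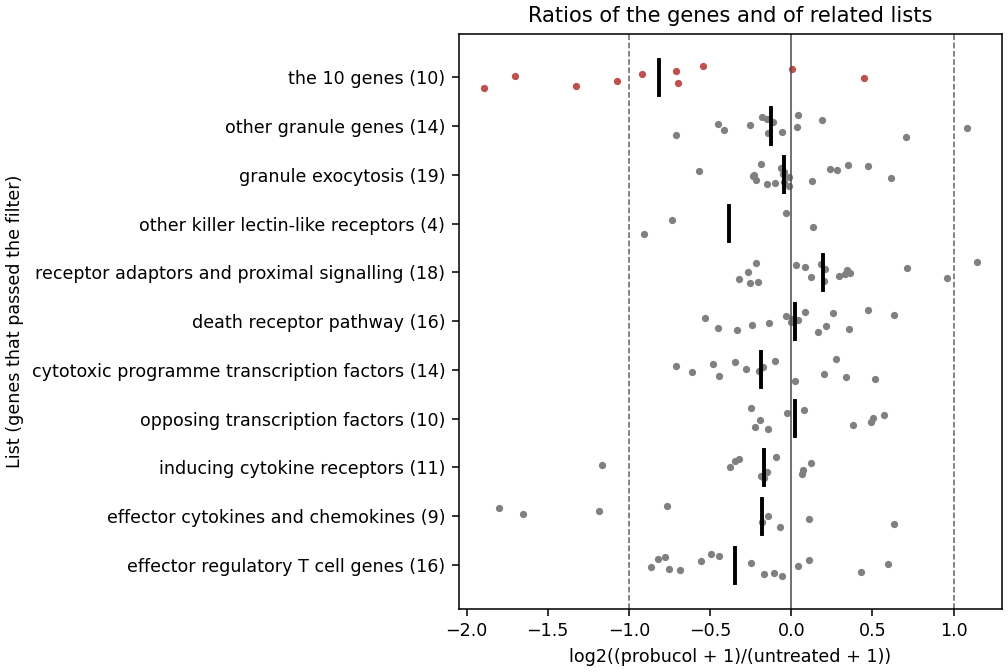
log2 ratios of the genes that passed the filter (points) and their median (bar) for the 10 genes (red) and for 10 related lists (grey), with dashed lines at 2-fold. The 10 genes have a median of -0.81, and the lists have medians from -0.38 (other killer lectin-like receptors, 4 genes) to 0.19 (adaptors and signalling, 18 genes). Without the filter the killer lectin-like receptor median is -0.10 (18 genes above 0), and the lowest drawn is then that of the effector regulatory T cell genes, -0.35. Cell type marker lists are not drawn. Their medians reach further, from -0.82 (erythroid cells, 9 genes) to 1.21 (B cells, 8 genes).

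Most tested genes for signals that induce the programme, and for products released with it, were lower with probucol, by varied amounts. Of 11 cytokine receptor genes tested, 8 were lower and 3 higher, with a median log2 ratio of -0.17. The interleukin 18 receptor subunit Il18rap, at 1.82 and 5.33 FPKM, was 2.93-fold lower (2.28 to 3.79), while the interleukin 2 and 15 receptor chain Il2rb was at 221 and 252 FPKM. Of 9 effector cytokine and chemokine genes, 7 were lower, 3 of them by at least 2-fold, and 2 higher, with a median of -0.18. The 3 were Ccl3, Ccl4 and Ccl5, and over all genes tested 1.98% were that much lower. Ccl5, at 131 and 459 FPKM, was 3.51-fold lower (3.14 to 3.92). It made up most of the list's sum, 199 FPKM with probucol and 555 FPKM untreated. Of 16 effector regulatory T cell genes, 12 were lower and 4 higher, with 0 past 2-fold and a median of -0.35. Tnfrsf9 had the lowest log2 ratio, -0.87, at 26.2 and 48.5 FPKM. Areg, at 2.23 and 4.53 FPKM, had the largest quotient of FPKM, 2.04-fold lower (1.20 to 3.56), and the log2 ratio with 1 added was -0.78. The lineage factor Foxp3 was at 67.5 and 70.3 FPKM. Over the 2 libraries, the listed gene nearest to Gzmb in its pair of log2(FPKM + 1) values was Ccl4, at a distance of 0.30, and the nearest to Klrd1 was Ccl3, at 0.25. Fasl was nearest to Ifng, at 0.05, Gzmk to Bhlhe40, at 0.17, and Prf1 to Was, at 0.10. With 2 values per gene, such nearness says only that level and ratio are alike.

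Natural killer cells and CD8 T cells carry most of the 10 genes, and their markers were read in the same libraries. Of 23 natural killer genes found, 7 passed the filter, 5 lower and 2 higher, with 0 past 2-fold and a median log2 ratio of -0.19. Of the 23, 8 were listed at 0 with probucol and 3 untreated, with Klra8 and Khdc1c at 0 in both. Over all 24346 symbols, 14289 were above 0 with probucol and 16876 untreated. The 23 genes summed to 411 FPKM with probucol and 467 FPKM untreated, most of it from Il2rb and Txk, which T cells express. Of the 21 above 0 in either library, 14 were lower and 7 higher, most of them on few fragments. The defining receptor Ncr1 was at 1.04 and 0.0795 FPKM, on 13 and 1 fragments. Klrb1c was at 1.82 and 1.57 FPKM and Klre1 at 0.996 and 0.708 FPKM, with folds of 1.16 (0.691 to 1.95) and 1.41 (0.515 to 4.03). Styk1, Klri2 and Klra3 were listed at 0 with probucol and at 0.441, 0.404 and 0.696 FPKM untreated, on 14, 15 and 7 fragments. Cd244 was at 0.395 and 1.01 FPKM, and Osbpl5 at 9.76 and 13.2 FPKM, 1.36-fold lower (1.18 to 1.56). Cd8a was at 0.139 and 0.276 FPKM and Cd8b1 at 15.9 and 19.6 FPKM, 1.23-fold lower (1.02 to 1.49). Of 8 genes found for NKT and gamma delta T cells, 3 passed the filter. Zbtb16, the NKT lineage factor, was at 0.123 FPKM with probucol and listed at 0 untreated. Macrophage genes summed to 196 and 189 FPKM, most of it from Lyz2 at 125 and 132 FPKM. Dendritic cell genes summed to 161 and 176 FPKM, most of it from Bst2 at 156 and 170 FPKM. The sums therefore say little about the other genes of these lists. Of 10 macrophage genes that passed the filter, 7 were higher and 3 lower, with a median log2 ratio of 0.29. Csf1r was at 3.75 and 1.85 FPKM, and Cd5l at 5.48 and 8.46 FPKM. Of the 8 dendritic cell genes, 4 were lower and 4 higher. The part of these cells in the values of the 10 genes was not tested.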

How the data were processed

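Splenic CD4+ T cells were sequenced as 1 RNA library per group, from full-length SMART-Seq HT cDNA and a Nextera kit, per the labels' protocols. The deposited values are FPKM per gene symbol, per the file headers. The submitters' processing notes name mm10, Cuffdiff 2.2.1, Bowtie2 and TopHat2 2.1.1 but assign them no role or order. Annotation, read filters, scaling, molecular identifiers and strand are not stated.

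The members and lists were chosen with earlier results of these data known. All 10 members are described. From each list, up to 4 genes with the largest ratios and its defining genes were eligible to be named. Genes with a mean FPKM of 1 or more were tested for a log2 ratio of FPKM + 1 of at least 1 either way. Count models were left out, FPKM being no count.

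Fragments were estimated from steps in low FPKM values of genes with 1 transcript of 800 to 10000 bases. Of these values 76.7% with probucol and 77.8% untreated lay within 0.1 of a whole fragment, where 20% would by chance. Lengths were medians of GENCODE M21 (GRCm38) transcripts with a RefSeq match, or basic transcripts where a gene had none, and 23310 symbols had one. Over all genes with a length, RefSeq-matched lengths put 66.7% and 70.0% of low values near whole fragments, against 52.8% and 55.0% for basic transcripts. The estimated totals were 1.04e+07 fragments in each library. The functions were checked on simulated data. The planned comparison of member proteins was not analysed here. Python 3.11.15, pandas 2.3.3 and SciPy 1.17.1 were used. Alternatives were 2 other pseudocounts, 2 other filters and 3 other scalings.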

Additional observations from a re-analysis of the deposited data

How the results depend on the processing

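Of the 10 members, 8 were lower and 2 higher under pseudocounts of 0.1 and 5, with no filter, and with both libraries scaled to equal sums or to the CD4 T cell identity genes. Centring on the median gene made 9 lower and 1 higher, since Fasl lies at the median. At least 2-fold lower were 5 members with pseudocount 0.1, 2 with pseudocount 5 (Gzmb and Nkg7), and the same 2 when a mean FPKM of 5 was required, which leaves 6 members. No member was at least 2-fold higher under any of the 7 alternatives. The members' median was -0.62 with pseudocount 5 and -0.70 when a mean FPKM of 5 was required. Over all genes, 357 were lower and 313 higher with pseudocount 0.1. The counts were 64 lower and 55 higher under pseudocount 5, and 96 lower and 83 higher when a mean FPKM of 5 was required. The pseudocount decided the ratio of low genes by construction: that of Gzma ran from -3.76 to -0.68 and that of Klrd1 from -2.26 to -0.85, while Gzmb stayed between -1.37 and -1.16, Nkg7 between -1.09 and -1.03, and Prf1 between 0.41 and 0.49. Gzma, Klrd1 and Klrk1 rest on about 1 to 8 fragments with probucol at median transcript lengths, which limits them most. No paired analysis was possible because each group has 1 library, and for the same reason none could be left out.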

Other observations

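Values of genes beside the members belong to no comparison above, and the genes were chosen after their values were seen. Gabarapl1, an autophagy gene 49436 bases from Klrd1, measured 3.27 FPKM with probucol, against 7.97 FPKM untreated, a log2 ratio of -1.07. M6pr, the mannose 6-phosphate receptor gene 25838 bases from Klrg1, was at 170 and 173 FPKM. Phc1, 34849 bases from Klrg1, was at 3.96 and 2.08 FPKM. Golga4, 20135 bases from Eomes, was at 10.3 and 7.74 FPKM, and Suco, 27619 bases from Fasl, at 8.41 and 6.97 FPKM. The nearest measured genes on either side of Prf1, Adamts14 and Pald1, were at 0.282 and 0.123 FPKM with probucol, with Adamts14 at 0.521 FPKM and Pald1 listed at 0 untreated. Siglecg, a B cell gene 18715 bases from Nkg7, was at 1.5 and 0.351 FPKM.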
